A study of Mus musculus with 8 samples.

Results

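The subject is the m6A peaks that lie in antisense RNAs in mouse spermatogenic cells. They were taken as every peak whose gene class in the authors' peak lists is antisense RNA, and there were 771 of them among 35697 peaks (2.16%), in 290 genes. The 4 lists come from methylated RNA immunoprecipitation sequencing (MeRIP-seq), in which RNA fragments of 100 to 200 nt were pulled down with a polyclonal antibody against N6-methyladenosine (m6A) and sequenced beside unselected fragments, called input. Testes of C57BL/6 animals aged 12 weeks gave the cells, and the genotypes were wild type (WT) and Alkbh5-/- (KO, lacking an RNA demethylase that removes m6A). The labels name 2 cell fractions, PA and RO, and the series title speaks of pachytene spermatocytes, germ cells in meiotic prophase, and round spermatids, the haploid cells that follow. Each genotype and fraction has 1 input and 1 immunoprecipitated library, 8 samples in all, so no comparison between genotypes or fractions has a replicate check and none carries a p-value; intervals are 95% and cover counting error only. The labels do not say how the fractions were sorted, how many mice gave the cells or which part of Alkbh5 was removed.

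An antisense RNA is transcribed from the strand opposite another gene and overlaps it or starts next to it; Kcnq1ot1, an imprinted RNA that silences neighbouring genes in cis from the paternal chromosome, is the best known of those measured here. m6A is written by the METTL3 and METTL14 complex at adenosines in a short motif, of which GGAC is the core, and is read by YTH proteins and removed by ALKBH5 and FTO. In mRNA it lies mostly in long exons and around stop codons. An antisense peak can share its position with a peak of the gene on the other strand, so a library that keeps the strand of each fragment is needed to assign it. The labels name a library kit without saying that strand was kept, and reads of an antisense RNA and its partner cannot be told apart if it was not.

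The count totals of the input libraries lay between 9921365 and 13147239; the depth of the immunoprecipitated libraries is not known here. Of the marker genes listed for each cell type, those paired with an identifier in the peak lists were 6 of 10 for pachytene spermatocytes, 7 of 10 for round spermatids, 3 of 5 for Sertoli cells and 2 of 5 each for spermatogonia and Leydig cells. Summed round spermatid markers were higher in RO than in PA, at 543 against 293 CPM (the unit of scaled counts) in WT and 852 against 514 in KO. Summed pachytene markers were 2939 CPM in RO against 3272 in PA in WT, and 2080 against 1832 in KO, so the WT and KO libraries differed more in them than the fractions did. Taken singly, 3 of the 6 pachytene markers were higher in RO than in PA in WT and 5 in KO. Of the 7 round spermatid markers, 7 were higher in RO in WT and 6 in KO. Leydig cell markers were 136 CPM in WT PA and between 16.7 and 41.5 in the other libraries. Sertoli cell markers were 124 and 151 CPM in PA (WT and KO) and 79 and 92 in RO, and spermatogonial markers 29.2 and 58.5 in PA and 23.3 and 36.2 in RO. Their part in the results below was not tested. Alkbh5 itself has no peak and so no symbol in the count table, and it was not analysed here.

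Sequence could be shown for peaks that reach into the 250 bases upstream of a RefSeq gene start on the opposite strand, where an antisense RNA and its neighbour run away from each other. The RefSeq promoter table (GRCm38.p6, the build also called mm10) held 9 such segments of at least 100 bases, from 7 antisense genes, that lay outside any RefSeq gene of the other strand. They are given on the strand of the peak, 5′ to 3′, with GGAC in capitals, because they show the letters of antisense peaks outside the RefSeq genes of the other strand. An opposite-strand peak of the lists still covered 1 of the 9, that of Ccdc142os, where Gm42688 had a 3′ UTR peak in WT RO.
Gm20522, WT PA, chr17:35126158-35126324, minus strand, before D17H6S53E: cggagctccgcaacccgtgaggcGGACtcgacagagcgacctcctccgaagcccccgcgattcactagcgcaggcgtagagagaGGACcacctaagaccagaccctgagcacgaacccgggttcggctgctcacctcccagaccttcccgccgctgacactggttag
Gm10069, WT RO, chr6:128438757-128438906, plus strand, before Fkbp4: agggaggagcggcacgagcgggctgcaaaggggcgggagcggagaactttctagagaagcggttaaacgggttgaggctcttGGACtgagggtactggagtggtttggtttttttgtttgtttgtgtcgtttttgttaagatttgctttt
4930526L06Rik, WT RO, chr19:11196817-11196963, plus strand, before Ms4a13: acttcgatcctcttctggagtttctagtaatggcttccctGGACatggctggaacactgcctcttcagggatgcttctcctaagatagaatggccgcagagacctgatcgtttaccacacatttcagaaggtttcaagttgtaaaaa
4930558J22Rik, WT RO, chr13:23756798-23756936, minus strand, before H4c2: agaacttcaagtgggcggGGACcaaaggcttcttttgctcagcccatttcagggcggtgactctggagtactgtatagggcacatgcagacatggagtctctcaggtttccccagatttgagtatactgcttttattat
Ccdc142os, WT RO, chr6:83108879-83109025, minus strand, before Mrpl53: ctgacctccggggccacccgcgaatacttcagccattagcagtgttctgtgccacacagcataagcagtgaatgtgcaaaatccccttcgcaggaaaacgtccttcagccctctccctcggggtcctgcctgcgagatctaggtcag
GGAC, searched on the strand of the peak, was present in 6 of the 9 segments, and GGACT, which contains it, in 2 of the 9. Since 3 of the segments are nested parts of 1 place in Gm20522, this is 4 of the 7 genes for GGAC and 2 of the 7, Gm20522 and Gm10069, for GGACT. At the same offsets from the start, on the same relative strand, 31.6% to 45.9% of 27025 RefSeq upstream windows held GGAC and 10.1% to 15.9% held GGACT, depending on the length of the segment. Gm20522 had a peak at this place in WT PA, KO PA and KO RO, with folds of 35.8, 4.89 and 12.2 (the fold is the authors' ratio of immunoprecipitated to input signal at a peak and is used only within a list). The part of its peak with GGACT was covered in WT PA alone. The other 4 segments shown come from WT RO; the segment of Ccdc142os held neither motif, and nor did those of 4930515L19Rik and Gm43137, which are not shown.

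The WT RO list held the most antisense peaks and the WT PA list the fewest. There were 144 antisense peaks in 109 genes for WT PA, 196 in 151 genes for KO PA, 254 in 187 genes for WT RO and 177 in 142 genes for KO RO. As a share of the list this was 1.92% of WT PA peaks (1.63% to 2.26%), 1.97% of KO PA peaks (1.72% to 2.27%), 2.7% of WT RO peaks (2.39% to 3.04%) and 2% of KO RO peaks (1.73% to 2.31%). In PA the KO list had 1.36 times as many antisense peaks as the WT list (1.09 to 1.7), close to the 1.32 times (1.28 to 1.36) of all other peaks, and the share of the list differed by 0.0541 percentage points (-0.368 to 0.464). In RO the KO list had 0.697 times as many (0.572 to 0.848) against 0.946 times (0.919 to 0.974) for other peaks, and its antisense share was below that of WT, with a difference of -0.696 percentage points (KO minus WT, -1.14 to -0.256). The WT RO share also exceeded the WT PA share, by 0.777 percentage points (0.321 to 1.23), while KO RO and KO PA differed by 0.0273 (-0.372 to 0.432). The WT RO list thus stood apart from the other 3, and with 1 library of each kind genotype, fraction and library cannot be told apart there.

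The antisense peaks were shorter than other peaks by median, and most, like most other peaks, lay in a single exon block. Their median exonic width was 210.5 bp in WT and 235 bp in KO in PA, and 208 bp in WT and 210 bp in KO in RO, against 240, 269, 238 and 241 bp for the other peaks of each list. A single block made up 82.6%, 78.1%, 80.7% and 80.8% of them in the same order, against 86.2%, 78.8%, 86.7% and 84% of other peaks. Antisense peaks thus had several blocks more often. The interval of that difference excluded 0 in WT RO (6.03 points, 1.6 to 11.4) but not in the other lists. The authors' feature class was exon for every antisense peak but 1 in WT RO, which was classed as 3′ UTR. Their median fold stood at the percentiles 43.1, 43.6, 42.3 and 43 of their own lists, a little below the middle. A false discovery rate of 0.05 or more, as the authors give it, was attached to 11.1% of the antisense peaks of WT PA (16 peaks), 4.08% of those of KO PA (8), 14.6% of those of WT RO (37) and 4.52% of those of KO RO (8). Among other peaks it was 6.8%, 2.12%, 13.1% and 3.52%, and the interval of the difference excluded 0 in WT PA (4.32 points, 0.118 to 10.5) but not in the other lists. Chromosome 7, which carries Kcnq1ot1, held 22, 29, 43 and 26 of the antisense peaks in these lists, and 11, 12, 23 and 11 of these were in Kcnq1ot1. With Kcnq1ot1 included this was 15.3%, 14.8%, 16.9% and 14.7% of the antisense peaks, against 8.1%, 7.77%, 8.12% and 7.59% of other peaks.

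Antisense peaks of the 2 WT lists recurred in the KO list of the same fraction less often than other peaks, above all those of WT RO. With an overlap of at least 1 bp of exon blocks on the same strand counted as shared, 99 of the 144 WT PA peaks (68.8%) had a counterpart in KO PA, against 79.9% of other peaks, a difference of -11.2 points (-19.2 to -4.11). In the other direction 98 of the 196 KO PA peaks (50%) were shared with WT PA, against 56.7% of other peaks (difference -6.7 points, -13.7 to 0.3). Of the 254 WT RO peaks, 94 (37%) were shared with KO RO, against 56.4% of other peaks (difference -19.4 points, -25.2 to -13.2). Of the 177 KO RO peaks, 94 (53.1%) were shared with WT RO, against 59% (difference -5.86 points, -13.3 to 1.42). The intervals of these differences lay below 0 for the 2 WT lists. For the 2 KO lists the intervals included 0. All of them treat peaks as independent, though Kcnq1ot1 alone held 11 of the 144 WT PA and 23 of the 254 WT RO peaks. The differences were not recomputed without it. Across fractions, WT RO peaks were found in WT PA in 33.9% of cases against 51% of other peaks, a difference of -17.2 points (-22.8 to -11.1), and WT PA peaks in WT RO in 57.6% against 64.2% (-6.55, -14.8 to 1.3). KO RO peaks were found in KO PA in 68.9% against 81.4% (-12.5, -19.7 to -6.06) and KO PA peaks in KO RO in 62.2% against 70.2% (-7.91, -14.9 to -1.36). The high sharing between the KO lists was thus not particular to antisense peaks, whose shares were below those of other peaks there as well. By covered antisense sequence, 47% of the bases covered in either KO list were covered in both, against 37.6% for WT PA with KO PA and 26.3% for WT RO with KO RO. Antisense peaks were narrower than other peaks, at medians of 210.5 against 240 bp in WT PA and 208 against 238 bp in WT RO. A narrow peak is less likely to meet another under the overlap rule, and the part of this in the lower shares was not tested.

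Merging overlapping peaks of all lists gave 395 loci. Of these, 55 (13.9%) had a peak in all 4 lists, 57 in 3, 71 in 2 and 212 (53.7%) in 1 only. The same merging of all other peaks gave 14517 loci, of which 24.2% were in all 4 lists and 42.6% in 1 only, so antisense loci were less often in every list (difference -10.3 points, -13.4 to -6.47) and more often in a single one (11.1 points, 6.08 to 16). The loci of a single list were 114 in WT RO, 36 in KO PA, 36 in KO RO and 26 in WT PA; WT RO alone had 28.9% of the antisense loci and 18.7% of the other loci (difference 10.2 points, 5.89 to 14.9). Peaks at loci of all 4 lists were wider, with a median of 299 bp against 179 bp for those of a single list, and stood higher in fold, at a median percentile of 65.2 against 32.3. The overlap rule makes a wide peak more likely to meet another, so it fixes part of the contrast in width, and how much was not tested. Its part in the contrast of antisense loci with other loci was not tested either. A false discovery rate of 0.05 or more was attached to 53 of the 215 peaks of single-list loci (24.7%) and to 2 of the 233 peaks of loci found in all lists (0.858%). By genes, 51 of the 290 antisense genes (17.6%) had a peak in every list against 35% of 8443 other genes with a peak, and 141 (48.6%) had one in 1 list only against 30.8%, 74 of them in WT RO (25.5% against 14%).

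**Figure D1:**
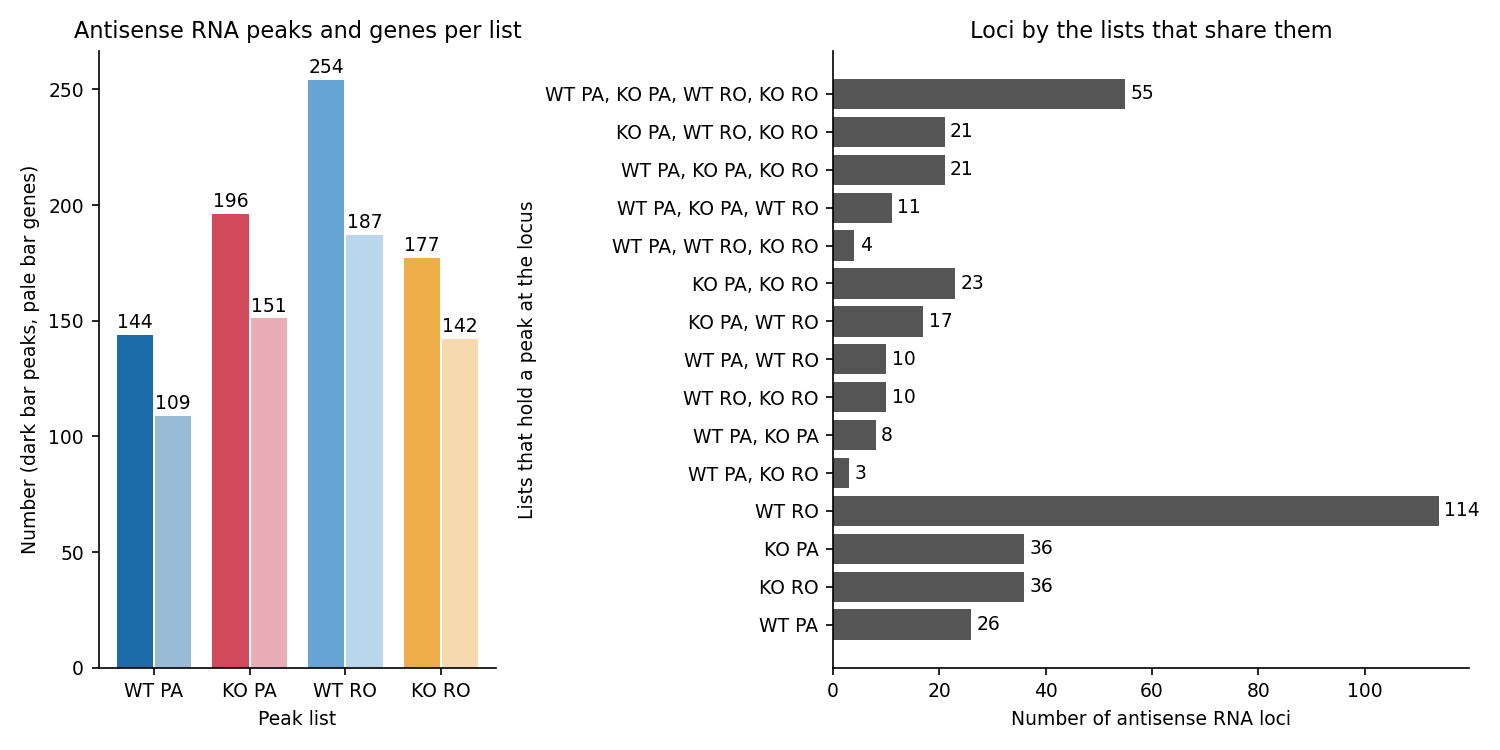
Left, the number of antisense RNA peaks (dark bars) and of genes that carry them (pale bars) in each list, from 144 peaks in WT PA to 254 in WT RO. Right, the number of the 395 antisense loci by the set of lists with a peak there; the longest bar is the 114 loci of WT RO alone, followed by the 55 loci shared by all 4 lists.

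Among the loci of all 4 lists, the highest mean percentile of fold belonged to 1700110K17Rik on chromosome 9. Its peak spanned chr9:40342122-40343241 on the plus strand in 3 of the lists, with 412 exonic bases, and its fold was 48.8 in WT and 143 in KO in PA, and 48.8 in WT and 65.7 in KO in RO. It was the strongest antisense peak of KO PA. Its input counts were 498 in WT and 113 in KO in PA, and 505 in WT and 184 in KO in RO, or 42.5, 10.4, 43.9 and 16.8 CPM in that order, so the RNA was lower in both KO libraries than in both WT libraries.

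4930451E10Rik on chromosome 13 (chr13:55775952-55783912, minus strand) had folds of 24.2 in WT and 53 in KO in PA, and 112 in WT and 128 in KO in RO, the last being the highest antisense fold of its list. Its input counts were 33, 56, 87 and 111 in the same order. 1700030C14Rik (chr2:152652912-152653202, minus strand) had folds of 66.4, 25.2, 53.8 and 54.2, with input counts of 50, 36, 104 and 31. A530020G20Rik on chromosome 3 had 2 loci in every list; the upstream of them, near chr3:121533136-121534021 on the plus strand, had folds of 31.9 in WT and 71.4 in KO in PA, and 37.7 in WT and 15.7 in KO in RO. Its input counts, 962 in WT and 347 in KO in PA, and 154 in WT and 88 in KO in RO, were higher in the PA than in the RO libraries of both genotypes. Gm14244 (chr2:127692048-127692553, plus strand, in WT RO) had folds of 47.7, 11.7, 87.6 and 56.7 and was, beside Kcnq1ot1, the antisense gene with the most input counts. None of these folds can be compared in level between lists, since each depends on the depth of its own pair of libraries.

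Other genes had a leading fold in 1 list. Gldnos, named as the opposite strand of the gliomedin gene Gldn, had the highest antisense fold of WT RO, 119, and no peak in any other list; its input counts were 10 in WT and 5 in KO in PA, and 2 in WT and 14 in KO in RO. 4931431C16Rik had a fold of 117 in WT RO, and its locus was found in 3 lists. 2810402E24Rik had 93.8 and Gm42918 72.8 in KO RO, and 1700120E14Rik had 69.9 in KO PA. Gm20457 reached 69.6 in WT PA and Gm16568 118 in WT RO, and both lay opposite a peak of a protein-coding gene.

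**Figure D2:**
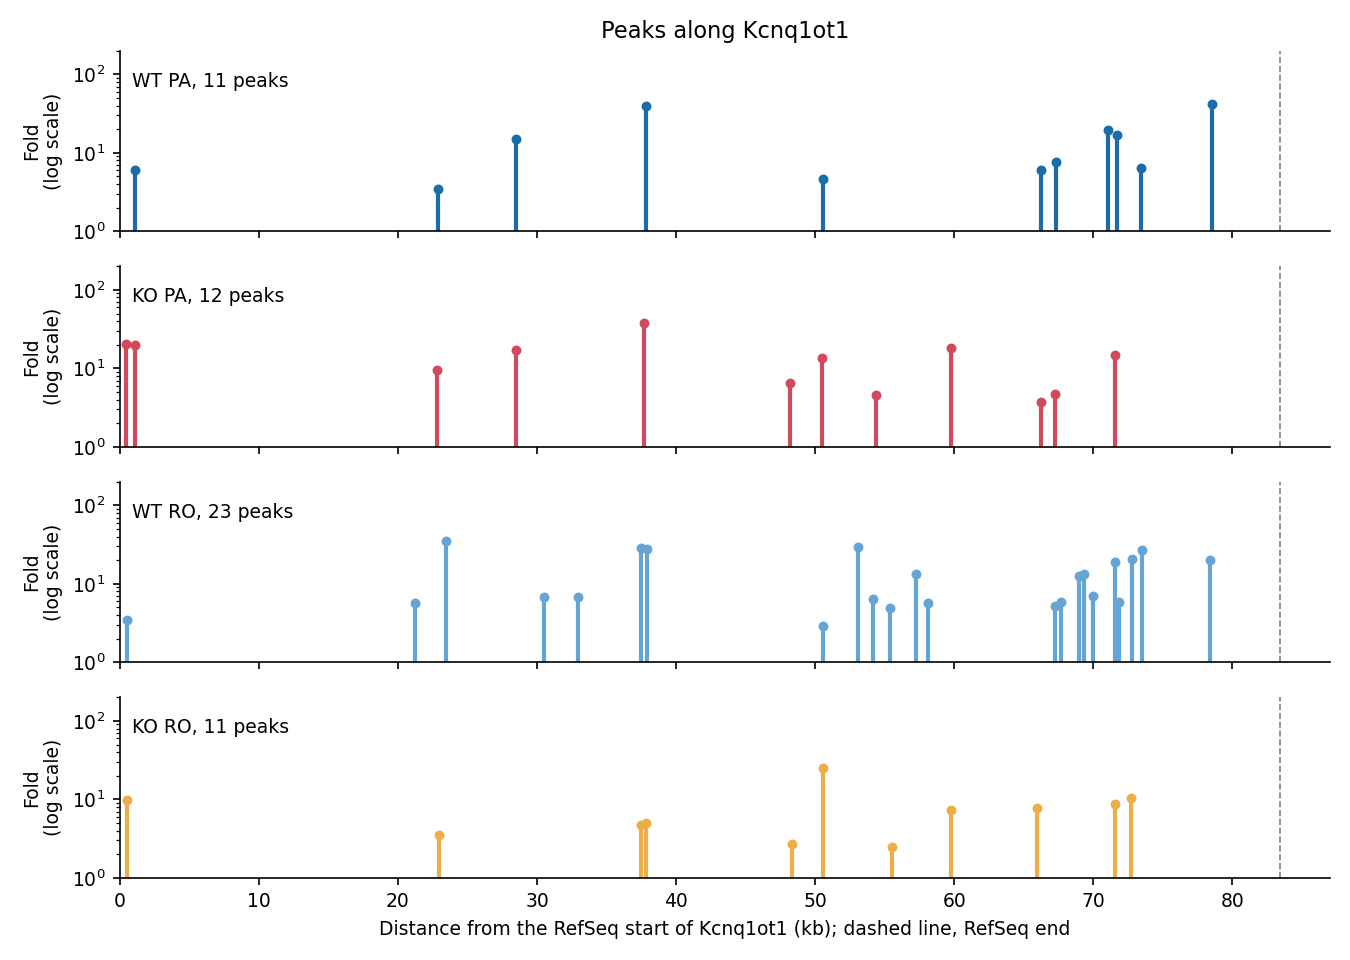
Peaks along Kcnq1ot1 in each list, placed by the distance of their middle from the RefSeq start in kb, with the authors' fold on a log scale. WT RO has 23 peaks, the other lists 11, 12 and 11, and 3 loci along the gene have a peak in all 4 lists.

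Kcnq1ot1 carried more peaks than any other antisense RNA. It is transcribed from chromosome 7 across 83437 bases in RefSeq and had 11 peaks in WT and 12 in KO in PA, and 23 in WT and 11 in KO in RO. These formed 29 loci, of which 3 were found in all 4 lists, 3 in 3 lists, 9 in 2 lists and 14 in 1 list, 11 of these in WT RO. One shared locus lay 37486 to 38206 bases from the start in WT PA, with a fold of 40.1, and had a fold of 38 in KO PA; in WT RO it was split into peaks with folds of 28.3 and 27.9 and in KO RO into peaks with folds of 4.66 and 5.02. Another, 50442 to 50622 bases from the start, had folds of 4.64 in WT and 13.5 in KO in PA, and 2.88 in WT and 25.2 in KO in RO. The input counts of Kcnq1ot1 were 10215 in WT and 9227 in KO in PA, and 10468 in WT and 9792 in KO in RO. After scaling these were 871, 853, 909 and 894 CPM, so the RNA was at nearly the same level in the input of WT RO, whose list has 23 peaks, as in the others. The log2 ratio of KO to WT was -0.03 in PA and -0.02 in RO. Without Kcnq1ot1 the number of antisense peaks in KO relative to WT was 1.38 in PA and 0.719 in RO, so the gene did not carry the difference of the RO lists alone.

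Tug1, a long noncoding RNA of 9030 bases in RefSeq that lies divergent from Morc2a, had 3 peaks in WT and 5 in KO in PA, and 6 in WT and 4 in KO in RO, at 7 loci. The locus nearest the start had folds of 54.3 in WT and 23.3 in KO in PA, and 71.1 in WT and 15.1 in KO in RO, and the next 19.9, 31.6, 79.9 and 28.5. Both were found in all 4 lists. Its input counts were 1030, 894, 900 and 1248. In all, 13 antisense genes had 3 or more listed peaks in at least 1 list. In 5 genes, however, the lists hold near copies of a peak on the same strand that are shifted by a few bases, and merging these removed 12 of the listed peaks and left 11 genes with 3 or more. 4933427E11Rik was listed with 2 peaks in WT and 2 in KO in PA and 4 in WT RO, which merged to 1, 1 and 2, and 1700055D18Rik with 3, 3, 2 and 3, which merged to 2, 2, 1 and 2. D030055H07Rik had 2, 0, 3 and 0, none of them overlapping. Gm10069 had 2, 1, 3 and 3, Gm14244 2, 3, 3 and 1, 1700052K11Rik 3, 2, 1 and 2, and Zfhx2os 3, 0, 0 and 1. Gm16325 had 2, 3, 3 and 3, and Gm21284 3, 3, 2 and 3. The others were Gm10545 and Gm42609.

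Peaks of antisense RNAs coincided with a peak of another gene on the opposite strand far more often than other peaks did. In the same list, 48 of 144 antisense peaks in WT PA (33.3%, 26.2% to 41.4%), 67 of 196 in KO PA (34.2%, 27.9% to 41.1%), 59 of 254 in WT RO (23.2%, 18.5% to 28.8%) and 54 of 177 in KO RO (30.5%, 24.2% to 37.6%) overlapped an opposite-strand peak by at least 1 bp. Among all other peaks the shares were 3.23%, 3.5%, 3.5% and 3.75%. The differences were 30.1 points (22.9 to 38.2), 30.7 (24.4 to 37.6), 19.7 (14.9 to 25.3) and 26.8 (20.4 to 33.9). Peaks of lincRNAs, a class of noncoding RNAs from between coding genes, had an opposite-strand partner in 9.92% to 13.8% of cases, and those of the class processed transcript in 11.8% (WT PA), 19.8% (KO PA), 13.7% (WT RO) and 18.3% (KO RO). The gene class fixes part of this contrast, since an antisense RNA is annotated as one for lying opposite a gene: 52.8% to 59.2% of antisense peaks lay inside a RefSeq protein-coding gene of the other strand, against 3.82% to 4.42% of other peaks. Of the antisense peaks with no opposite-strand peak, 38.5% in WT and 50.4% in KO in PA, and 45.6% in WT and 48.8% in KO in RO lay inside such a gene too.

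The antisense peak and its partner were often near copies of each other. The 228 pairs of all lists involved 104 antisense genes, and in 216 pairs the opposite gene was protein-coding. The starts of the members of a pair differed by a median of 12.5 bp and the ends by 23.5 bp. In 59 pairs (25.9%) the deposited fold and p-value were the same on both strands to every digit written, in 115 (50.4%) the folds lay within a factor of 1.1 and in 204 (89.5%) within a factor of 2. Among pairs with a log10 p of -5 or less on both strands, 21 of 133 (15.8%) were the same in both and 64 (48.1%) within a factor of 1.1. For comparison, each antisense peak without an overlap was set beside the nearest opposite-strand peak, and 5 of 543 (0.921%) then had the same fold and p-value and 37 (6.81%) a fold within 1.1. Identical values were not particular to antisense RNAs. Overlapping opposite-strand pairs with no antisense member had them in 30 of 96 cases for WT PA, 33 of 142 for KO PA, 53 of 135 for WT RO and 37 of 141 for KO RO, against 19 of 48, 9 of 67, 17 of 59 and 14 of 54 pairs with an antisense member.

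**Figure D3:**
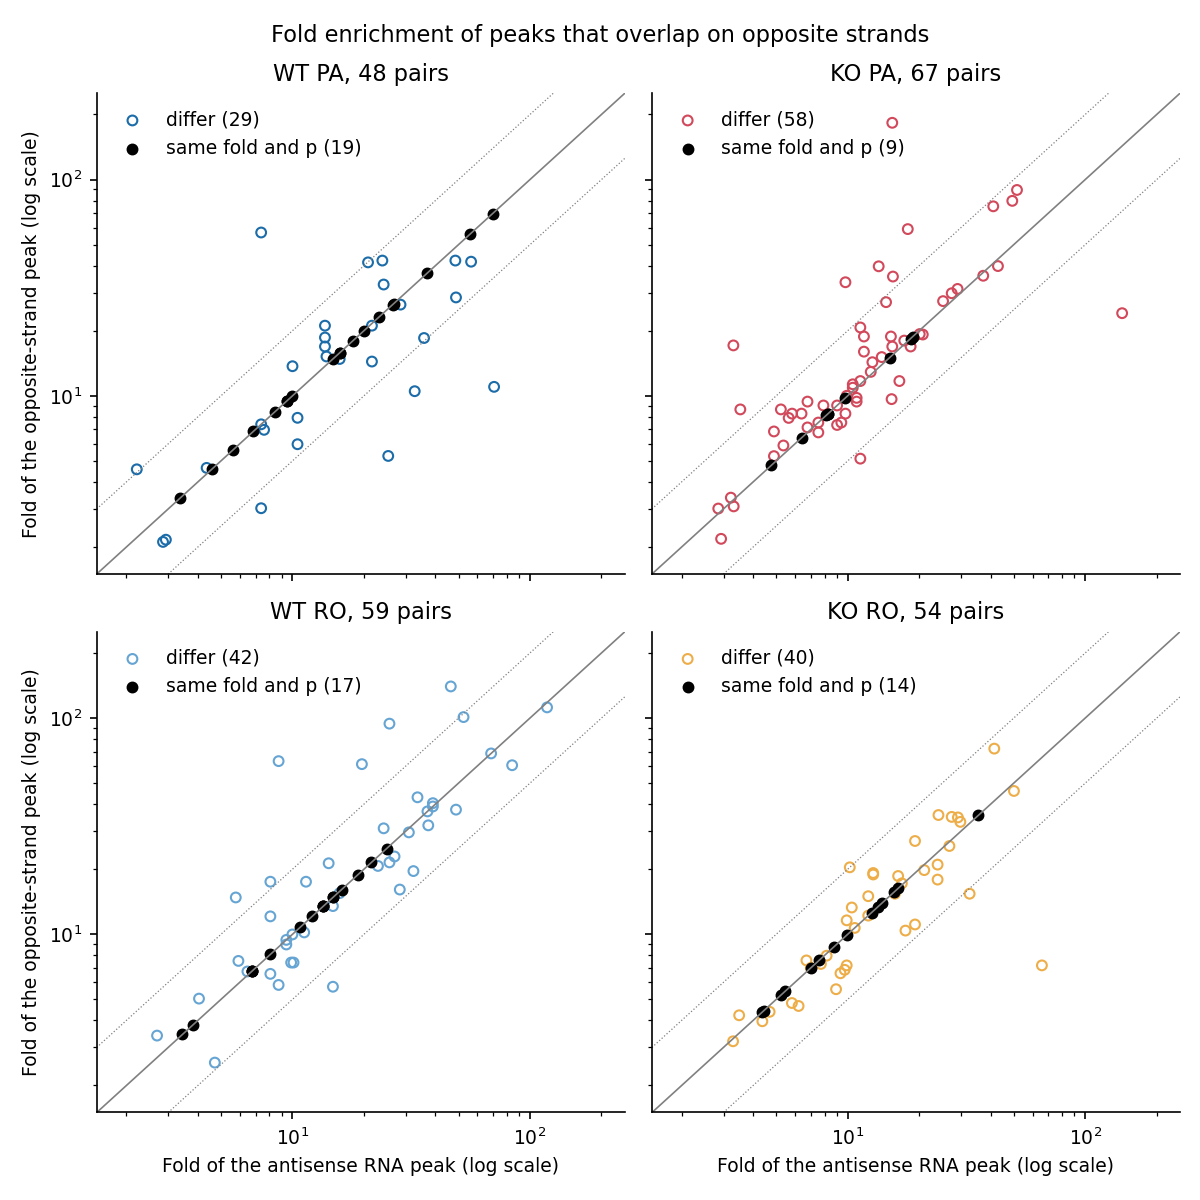
Fold of each antisense RNA peak (x axis, log scale) against the fold of the opposite-strand peak that overlaps it (y axis, log scale), by list; the solid line marks equal folds and the dotted lines a factor of 2. Filled points are the 59 pairs of 228 with the same fold and p-value on both strands, and 204 pairs lie within the dotted lines.

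Gm16568, opposite the centrosomal protein gene Cep295, is an example found in every list. In WT PA its peak at chr9:15334450-15334689 had a fold of 55.9 and a log10 p of -16, and the Cep295 coding-sequence peak 7 bp away at either end had the same 55.9 and -16. Elsewhere the folds of Gm16568 and Cep295 were 12.5 and 12.9 (KO PA), 118 and 112 (WT RO), and 50.1 and 46 (KO RO). The input counts of Gm16568 were 23, 19, 10 and 14 (WT PA, KO PA, WT RO, KO RO), those of Cep295 3949, 3580, 3587 and 4609.

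Gm20457, opposite the myotubularin-related gene Mtmr10, had a fold of 69.6 and a log10 p of -19.7 in WT PA, and so did the Mtmr10 peak; in KO PA both had 18.8, in WT RO both 14.8, and in KO RO the folds were 16.9 and 17.2. Prss23os, opposite the serine protease gene Prss23, had 36.9 on both strands in WT PA (chr7:89510419-89510685) and 21.5 on both in WT RO, while a second pair in WT PA had 13.7 against 21.1 for Prss23. In KO PA its peak of 679 bp had 49.3 against 79.7 for Prss23, and in KO RO 29.1 against 34.7. D030055H07Rik had 14.8 on both strands with Glyctk, the glycerate kinase gene, in WT PA, and 26.7 on both in a second pair there. In WT RO its 3 pairs had 84.1 against 60.5, 39 against 40.4, and 3.81 on both. Gm10550 had 21.6 against 21.1 for Thap4 in WT PA, 37.2 against 35.9 in KO PA, 39 on both strands in WT RO and 10.7 on both in KO RO. The antisense genes of these pairs had between 0 and 61 input counts in any library.

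Other pairs differed. Gm11175 lay opposite Jund, which encodes an AP-1 transcription factor, and had 20.8 against 41.4 for Jund in WT PA and, at chr8:70699738-70700080 in KO PA, 3.3 against 17.1. Gm10069 lay opposite a pseudogene and had the more input counts of the pair. Its fold was 70.6 in WT PA against 11 for Gm8719, which had 42 input counts there against 3124 of Gm10069. In the other lists the folds were close to each other, at 15.2 against 18.8 (KO PA), 68.6 on both strands (WT RO) and 29.8 against 33.1 (KO RO). 1700110K17Rik had 48.8 in WT and 143 in KO in PA, and 48.8 in WT and 65.7 in KO in RO against 28.5, 24.1, 37.7 and 7.18 for its partner AC132474.2, a sense intronic RNA. Over all 228 pairs the antisense fold was the higher in 76, the lower in 83 and equal in 69.

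The antisense genes of such pairs had few input reads. In 193 of the 228 pairs the opposite gene had the higher count in the input library of the same name, with a median of 401 counts against 34.5 for the antisense gene. Antisense genes with an opposite-strand peak had a median of 27 counts in WT and 20 in KO in PA, and 57.5 in WT and 21 in KO in RO. Those without one had medians of 149.5, 124, 104 and 116, and other genes with a peak 478, 412, 404 and 393. These are counts and not levels per length, and the lengths of the genes were not compared.

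Some antisense genes had a peak with next to no reads counted for the gene. A count of 3 or fewer in the input library of the same name was found for 14 of 109 genes for WT PA, 23 of 151 for KO PA, 15 of 187 for WT RO and 13 of 142 for KO RO. These are 12.8%, 15.2%, 8.02% and 9.15% of the genes, against 2.54%, 2.29%, 3.35% and 2.21% of other genes with a peak. Antisense genes without a peak in the list had such counts in 14.4%, 25.2%, 25.2% and 17.6% of cases. An opposite-strand peak was present for 9 of these 14, 16 of these 23, 6 of these 15 and 8 of these 13, against 34 of 95, 45 of 128, 44 of 172 and 41 of 129 of the antisense genes with more counts. The differences, in the same order, were 28.5 points (1.08 to 49.8), 34.4 (12.2 to 51.1), 14.4 (-6.94 to 39.4) and 29.8 (2.4 to 51.8), and the interval of WT RO included 0. Gm16280 had a peak in all 4 lists with 0 counts in WT PA, KO PA and WT RO and 1 in KO RO, and no opposite-strand peak in any list. Gm10550 had one in all 4 with 12, 0, 3 and 3 counts, each opposite a peak of Thap4. The counting rule of the deposited table, strand and shared reads included, is not given in the sources used here, and its part in these low counts was not tested.

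**Figure D4:**
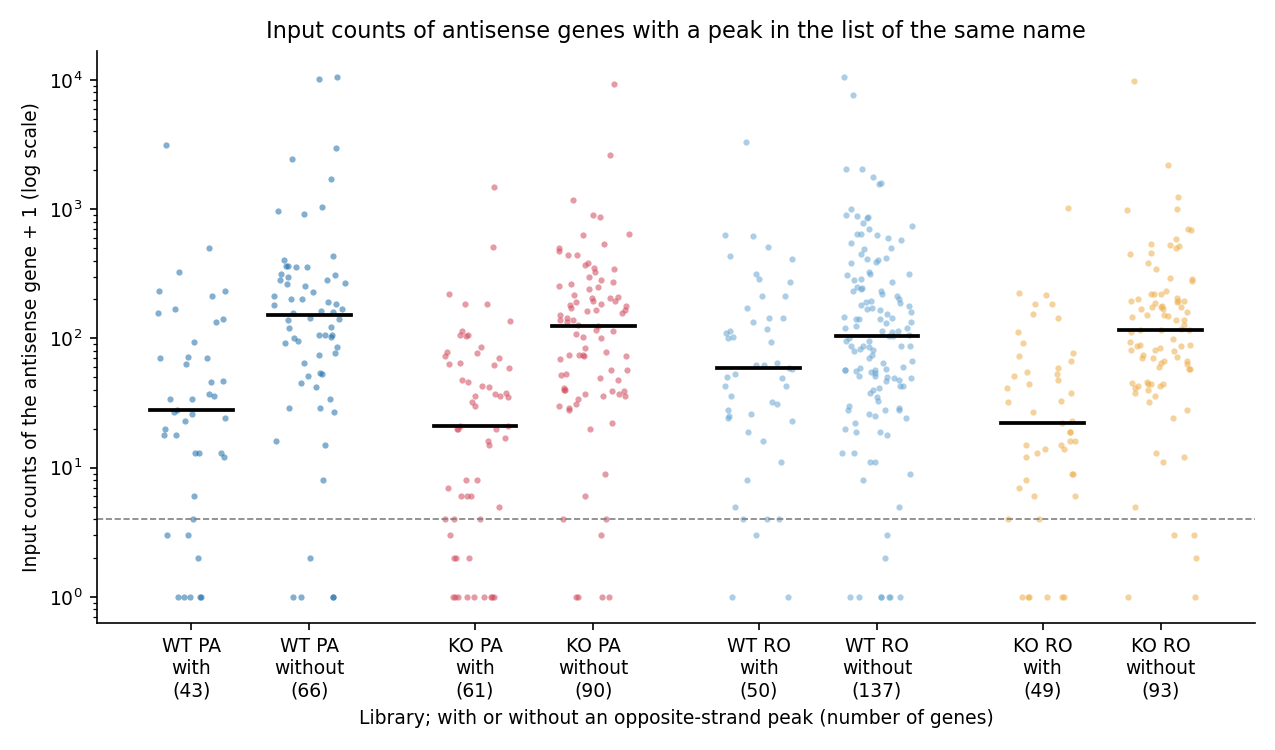
Input counts (plus 1, log scale) of each antisense gene with a peak, in the library of the same name, split by whether any of its peaks overlaps an opposite-strand peak; bars mark medians and the dashed line 3 counts. The genes with an opposite-strand peak have the lower median in each of the 4 libraries, for example 27 against 149.5 counts in WT PA.

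In the input libraries, antisense RNAs with a peak were at least 2-fold lower in KO than in WT more often than genes at large in RO, and in WT more often at least 2-fold higher in RO than in PA. All 290 genes were followed, and a comparison kept those that reached a CPM of 1 in at least 1 of its libraries; a ratio of at least 2-fold was counted as a difference. The median log2 ratios of all genes kept were 0.04 for KO over WT in both fractions and 0.01 for RO over PA in both genotypes. In RO, 257 members were kept, of which 82 (31.9%) were at least 2-fold lower in KO and 38 (14.8%) at least 2-fold higher, against 19% and 23% of all genes; their median log2 ratio was -0.39 (-0.52 to -0.21). In PA, 247 were kept, of which 68 (27.5%) were lower in KO and 52 (21.1%) higher, against 19.9% and 23.8% of all genes, with a median of -0.15 (-0.37 to 0.11). With scaling by total counts the median of all genes rose to 0.35 in PA and 0.22 in RO, and that of the members to 0.19 and -0.18, so the members stayed below all genes by either scaling while the sign of their PA median turned. By total counts the PA split was 68 members higher and 52 lower in KO, against 30.5% and 14.5% of all genes, and the RO split 41 higher and 68 lower, against 26.3% and 15.9%. A gene became a member by having a peak in some list, and 74 did so in WT RO alone. Without those 74 genes the median in RO was -0.33 (-0.52 to -0.12), with 55 of 192 lower and 28 higher. Among the genes with a peak in all 4 lists it was -0.50 (-0.80 to 0.08), an interval that included no change. Of these genes, 12 of 47 (25.5%) were lower in KO in RO and 1 (2.13%) higher.

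Between fractions, 84 of 252 members (33.3%) were at least 2-fold higher in RO than in PA in WT and 24 (9.52%) lower, against 21.6% and 18.7% of all genes, with a median log2 ratio of 0.43 (0.28 to 0.58). In KO, 53 of 244 (21.7%) were higher and 26 (10.7%) lower, against 17.5% and 15.2%, with a median of 0.22 (0.12 to 0.32). The KO shares thus differed from those of all genes in the same direction as the WT shares, but by less. The interval of the KO median lay above the 0.01 of all genes. Among the genes with a peak in all 4 lists, 15 of 49 (30.6%) were higher and 5 (10.2%) lower in RO in WT. In KO, 6 of 48 (12.5%) were higher and 5 (10.4%) lower. The median log2 ratios of these genes were 0.12 (-0.16 to 0.93) in WT and 0.21 (-0.10 to 0.37) in KO, and both intervals included no change. Leaving out the 74 genes changed the WT median to 0.52 and the KO median to 0.25. These comparisons share libraries with those of KO and WT, and are given side by side for that reason. In bulk samples fewer cells of a type and less RNA per cell cannot be told apart.

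Both KO libraries were at least 2-fold below both WT libraries for 32 of 264 members (12.1%), against 4.8% of all genes. The reverse, both KO at least 2-fold above both WT, held for 10 of 264 members (3.79%), against 6.42% of all genes. Among the 51 genes with a peak in all 4 lists, 5 of the 50 kept were lower in this way and 0 were higher. The largest of the lower group was Gm14244, with 10579 counts in WT and 2627 in KO in PA, and 7587 in WT and 2214 in KO in RO. This is a log2 ratio of KO to WT of -1.89 in PA and -1.70 in RO. C230037L18Rik had 2986, 474, 2047 and 589 counts, and log2 ratios of -2.53 and -1.72. 1700006J14Rik had 2463, 349, 1595 and 618 counts, and log2 ratios of -2.70 and -1.29. These 3 genes were taken from the lower group, so by its rule both WT libraries lie above both KO libraries in each. The summed pachytene markers were also lower in KO, at 1832 and 2080 CPM (PA, RO) against 3272 and 2939 in WT. Summed Leydig cell markers were lower in KO too, at 40 CPM against 136 in PA and 16.7 against 41.5 in RO. The summed markers of round spermatids, spermatogonia and Sertoli cells were higher in KO in both fractions, those of round spermatids at 514 against 293 CPM in PA and 852 against 543 in RO. In sums of so few genes an abundant one can set the direction, and single markers were not compared between genotypes here. The part of none of these in the ratios was tested.

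1700061E17Rik had 231 counts in WT and 0 in KO in PA, and 211 in WT and 15 in KO in RO, so it was at least 71-fold lower in KO PA than in WT PA, taken against 3 counts per library. In RO the lowest ratio belonged to Gm13205, with 130 counts in WT and 3 in KO, a scaled ratio of KO to WT of 0.0243 (0.00494 to 0.0725); it had 142 and 55 in PA. Gm15396 had 313 counts in WT RO and 18 in KO RO, a log2 ratio of -3.91, and Gm16845 191 and 13, a log2 ratio of -3.62. In PA these genes had 134 and 76, and 104 and 35 counts, in WT and KO.

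Among members that reached 10 CPM in either genotype, 1700109G14Rik had the highest ratio of KO to WT in both fractions, with 27 counts in WT and 164 in KO in PA, and 27 in WT and 177 in KO in RO, log2 ratios of 2.63 and 2.70. Ube4bos3, opposite the ubiquitin ligase gene Ube4b, had 51, 99, 28 and 121 counts, and was 4.54-fold higher in KO in RO (2.99 to 7.12). 4930458D05Rik had 52 and 173 counts in PA (WT and KO), a log2 ratio of 1.81, but 140 and 105 in WT RO and KO RO. 4933430L12Rik had 65 and 203 in PA, a log2 ratio of 1.73, and 95 and 118 in RO. Gm44317 had 57 and 154 in RO, a log2 ratio of 1.47, and 20 and 39 in PA.

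**Figure D5:**
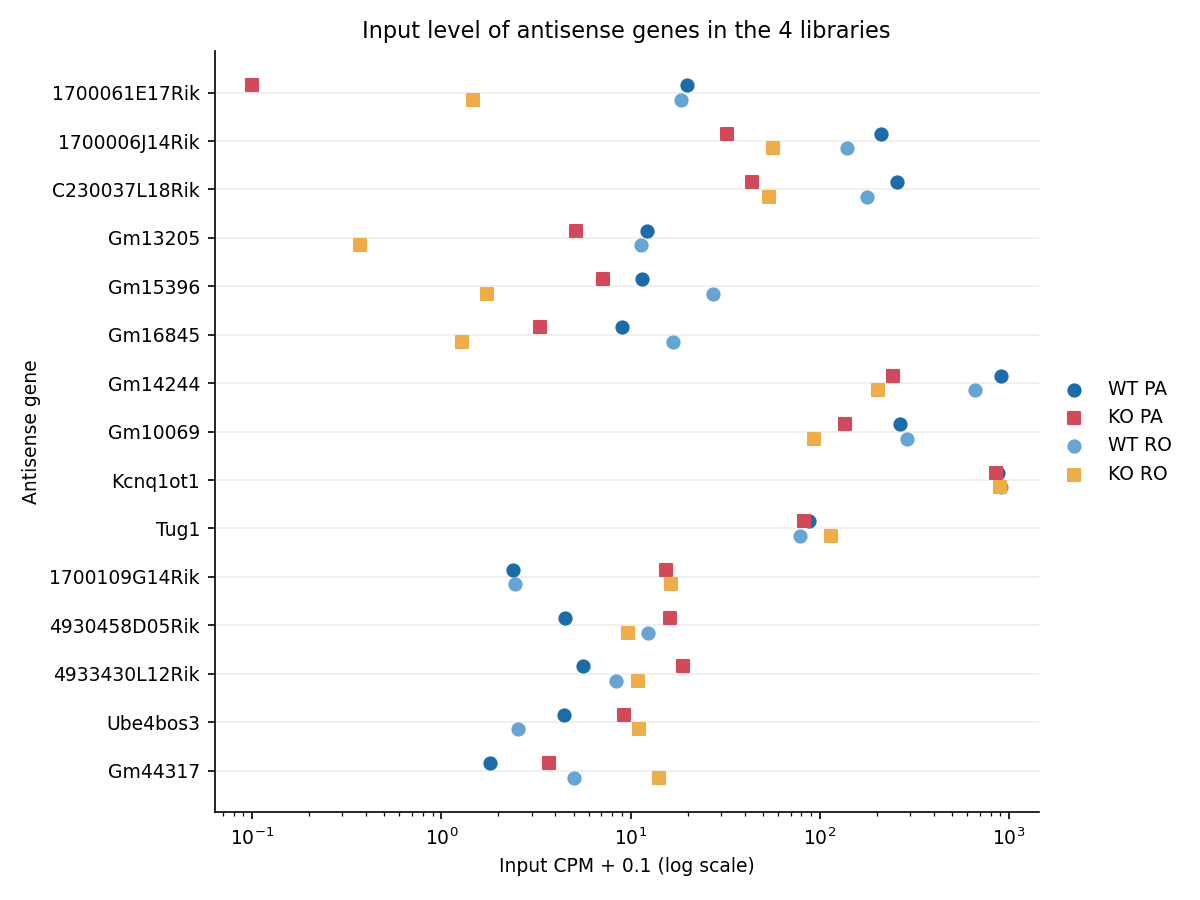
Input level of the named antisense genes in CPM plus 0.1 (log scale), with circles for WT and squares for KO, PA above RO within each row. Kcnq1ot1 stays between 853 and 909 CPM in the 4 libraries, while Gm14244 is at 902 and 659 CPM in WT and 243 and 202 in KO.

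Genes with a peak in 1 genotype only were also compared in their input ratio. In PA the median log2 ratio of KO to WT was 0.18 (-0.29 to 0.95) for the 62 genes kept with a peak in KO only and 0.25 (-0.98 to 1.24) for the 23 with a peak in WT only. In RO it was -0.45 (-0.63 to -0.01) for the 49 genes with a peak in KO only and -0.58 (-1.04 to -0.26) for the 95 with a peak in WT only. The intervals of the KO-only and WT-only genes overlapped in both fractions. Genes with a peak in both genotypes had medians of -0.34 (-0.65 to -0.03) in PA and -0.34 (-0.70 to 0.09) in RO.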

How the data were processed

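Per the submitters' processing notes, cutadapt 2.5, HISAT2 2.1.0, HOMER 4.10.4 and mm10 were used, without stated roles; the peak caller and the counting tool are not given in the sources used here. The authors deposited whole-number counts per gene for the 4 input libraries, not normalized. Per the file headers of the 4 deposited peak lists, each peak has a fold enrichment (a ratio), a p-value in the score column and a log10 score of the false discovery rate; each list was assigned by its name. Starts were read as 0-based and printed 1-based.

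TMM factors from edgeR 4.0.16 (R 4.3.3), between 0.892 and 1.09, scaled the counts, which were turned into log2 CPM with a prior count of 2. With 1 library per group no test was run. Where a library had 0 counts the fold is a lower bound, taken against 3 counts. Shares carry Wilson intervals, differences of shares Newcombe, and ratios of counts exact binomial 95% intervals; medians carry binomial intervals over genes, which are not replicates. Peaks were compared by exon blocks with Python 3.11.15, checked against bedtools 2.31.1. The ratio step was run on simulated counts that held counting error only. All 200 genes changed 4-fold, drawn from those with a CPM of at least 10, passed the 2-fold limit in each comparison. This checks the code and does not cover genes of lower CPM or differences between libraries of the same kind.

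Of the 290 antisense genes, 153 were in the RefSeq gene table (GRCm38.p6) by symbol and 114 in its promoter table; all 362 peaks whose gene has a strand there lay on that strand.

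The antisense peaks, the marker lists and the comparisons were chosen with earlier results of these data known. Named were the 3 highest folds of each list, the 12 loci of all 4 lists with the highest mean percentile, genes with 3 or more peaks, the 4 longest opposite-strand overlaps of each list and the 3 highest and 3 lowest genotype ratios per fraction at a CPM of at least 10; Gm14244, Gm16280 and the genes of the printed segments were chosen after their values were seen, and not every gene the rule gives is described. Alternatives covered limits on peaks, overlap, scaling, prior count and filter.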

Additional observations from a re-analysis of the deposited data

Results flagged for a closer look

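The number of antisense RNA peaks in KO relative to WT was 1.36 in PA and 0.697 in RO, so the count was higher in KO in PA and lower in KO in RO. Each value rests on 1 list per genotype, and the difference between the fractions was not tested. For all other peaks the same ratios were 1.32 and 0.946.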

How the results depend on the processing

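Of 120 alternative values, 90 stayed close to the value reported and 30 moved. Of the peak-number ratios and median log2 ratios whose intervals excluded no change, none turned in direction. For sharing and opposite-strand peaks only the antisense share was recomputed. These alternatives therefore cannot show whether its difference from other peaks would turn. The number of antisense peaks in KO relative to WT stayed between 1.36 and 1.56 in PA and between 0.641 and 0.779 in RO under every limit on peaks, with loci or genes in place of peaks, and without Kcnq1ot1. With a reciprocal overlap of 50% the share of WT PA peaks found in KO PA was 58.3%, of KO PA in WT PA 42.9%, of WT RO in WT PA 28%, of WT RO in KO RO 30.7% and of KO RO in WT RO 44.1%; an opposite-strand peak was then present for 26.5% (KO PA), 18.1% (WT RO) and 23.7% (KO RO) of antisense peaks. Counting any peak of the same gene as shared gave 77.1% and 72.2% for WT PA peaks (in KO PA, WT RO), 60.2% and 72.4% for KO PA peaks (in WT PA, KO RO), 48% and 53.1% for WT RO peaks (in WT PA, KO RO), and 76.8% and 65% for KO RO peaks (in KO PA, WT RO). By genomic span the median width was 240 bp (WT PA), 241 bp (KO PA) and 239 bp (WT RO), and peaks under the false discovery rate of 0.05 had a median of 227 bp in WT RO. Scaling by total counts gave the median log2 ratios 0.19 in PA and -0.18 in RO. A CPM of at least 10 left fewer genes. For KO over WT, 43 of 106 members were then past 2-fold in PA, against 26.4% of all genes. In RO it was 49 of 123 (median -0.58), against 24.6%. For RO over PA it was 44 of 118 in WT, against 21.2%, and 16 of 101 in KO, against 10.9%. Genes with an opposite-strand peak were also left out, which left fewer genes. This was chosen after seeing the data, as were the removals of Kcnq1ot1 and of the genes of WT RO alone. For KO over WT in PA, 75 of 163 members were then past 2-fold. Of the 163, 34 (20.9%) were higher and 41 (25.2%) lower, against 23.8% and 19.9% of all genes. In RO it was 64 of 170, with 17 (10%) higher and 47 (27.6%) lower, against 23% and 19% of all genes. For RO over PA in KO it was 42 of 161, with 31 (19.3%) higher and 11 (6.83%) lower, against 17.5% and 15.2% of all genes. With all members these were 120 of 247, 120 of 257 and 79 of 244, beside the same shares of all genes. No replicate could be left out with 1 library per group. No paired analysis was possible because the groups share fewer than 2 replicate numbers. Depth limits what the input of low antisense genes can show, since in each list 13 to 23 antisense genes with a peak had 3 counts or fewer.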
